A study of Mus musculus with 3 samples.

Results

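The genes that make, cleave and bind hyaluronan were examined in the maxillary process of the E10.5 mouse embryo. The 10 genes are the synthases *Has1*, *Has2* and *Has3*, the hyaluronidases *Hyal1* and *Hyal2*, the proteoglycans *Vcan*, *Acan* and *Ncan*, the link protein gene *Hapln1* and the receptor gene *Cd44*. They were taken by name from the GENCODE M21 mouse annotation, and all 10 were found among the 55401 genes counted. Bulk RNA-Seq counts were available for 3 libraries of *Wnt1cre; Rosa26Dlx2/-* embryos, named OE replicates 1, 2 and 3 here. In these embryos Cre under *Wnt1* control acts on a *Rosa26CAG-LSL-Dlx2-3xFlag* allele, so that *Dlx2* is overexpressed in neural crest cells. The epithelium, the vessels and other cells outside that lineage carry the allele unswitched, and every library holds both kinds of cell. The prominences were dissected freshly and their RNA was extracted with Trizol. The labels speak of independent RNA samples but do not say how many embryos each held. No wild-type library was used here. Each value describes the OE tissue alone, and no genotype comparison was made.

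Hyaluronan is a long, unsulphated sugar chain that is spun directly out of the cell through the plasma membrane by hyaluronan synthases, from UDP-glucuronic acid and UDP-N-acetylglucosamine. Outside the cell, link proteins lock large chondroitin sulphate proteoglycans, the lecticans, onto the chain, which swells with water and keeps embryonic mesenchyme loose. Hyaluronidases cut the chain, and CD44 is the main cell surface receptor that holds it. In the face, this matrix is best known for filling the mesenchyme of the facial prominences and of the palatal shelves that later grow from the maxillary process.

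The level of *Dlx2* and the tissue were looked at first. *Dlx2* was at 235, 201 and 183 CPM (read counts per library size, scaled with TMM factors) in replicates 1, 2 and 3. Counts per gene do not separate the transgene from the endogenous gene. Without a wild-type library this level does not check the overexpression. The markers of facial mesenchyme, which include *Prrx1* and *Twist1*, were all present, and the sum over their 8 genes was 1509, 1577 and 1561 CPM. Some features of the libraries touch the results below. Replicate 1 had 0 counts for all 4 Y-linked genes examined, and its 9 neuron markers summed to 273 CPM against 24.3 and 35.9 in replicates 2 and 3. The 8 pigment epithelium markers summed to 5.00, 33.9 and 156.5 CPM in the same order, the eye and forebrain markers to 25.0, 158 and 146 CPM, the glia markers to 98.2, 25.2 and 26.4 CPM and the erythroid markers to 2132, 3990 and 4916 CPM. Replicate 3 showed a trend with gene length. Genes with more than 8000 exonic bases lay at a median of -0.37 there, on a log2 scale against the mean of the libraries, and genes of up to 2000 bases lay at 0.43. In replicate 1 the same medians were 0.26 and -0.30. The libraries held 35351031 to 40057435 counts on genes, and 3 counts, the most that a gene listed at 0 can be taken to hide, stood for 0.0777, 0.0843 and 0.0796 CPM. This floor covers counting error only.

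Because *Vcan*, *Hapln1* and *Hyal2* carried most of the summed level of the members, their promoter windows are shown. Each runs from 250 bases before to 50 bases after the RefSeq start in GRCm38.p6, 5′ to 3′ on the strand of the gene. The windows are chr13:89742463-89742762, minus strand, for *Vcan*, chr13:89540386-89540685, plus strand, for *Hapln1*, and chr9:107568913-107569212, plus strand, for *Hyal2*. Capitals mark TAATT, the core that DLX and many other homeodomain proteins bind, and TGTGGT, the core of RUNX sites, read on both strands.
Vcan: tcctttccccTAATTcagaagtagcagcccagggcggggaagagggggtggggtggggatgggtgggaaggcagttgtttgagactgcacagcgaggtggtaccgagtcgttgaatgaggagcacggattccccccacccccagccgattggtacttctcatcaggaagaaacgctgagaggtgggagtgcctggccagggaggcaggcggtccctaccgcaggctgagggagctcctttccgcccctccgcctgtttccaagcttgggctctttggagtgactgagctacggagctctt
Hapln1: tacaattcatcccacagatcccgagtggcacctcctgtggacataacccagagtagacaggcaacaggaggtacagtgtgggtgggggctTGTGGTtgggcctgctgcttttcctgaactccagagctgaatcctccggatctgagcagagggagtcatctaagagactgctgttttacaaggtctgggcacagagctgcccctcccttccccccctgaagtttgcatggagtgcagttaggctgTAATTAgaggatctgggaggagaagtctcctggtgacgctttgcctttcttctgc
Hyal2: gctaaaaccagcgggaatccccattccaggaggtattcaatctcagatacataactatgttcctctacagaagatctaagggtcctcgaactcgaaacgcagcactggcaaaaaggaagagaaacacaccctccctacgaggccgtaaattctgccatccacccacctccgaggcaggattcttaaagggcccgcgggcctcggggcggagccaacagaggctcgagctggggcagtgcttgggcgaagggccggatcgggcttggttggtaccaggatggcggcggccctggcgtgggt
The *Hapln1* window holds TAATT on both strands at overlapping positions that begin at -5 and -4 from the start, and 1 TGTGGT. The *Vcan* window holds 1 TAATT, and the *Hyal2* window holds neither motif. The RefSeq starts of *Hapln1* and *Hyal2* lie inside the GENCODE bounds given below, which also cover other transcripts. Of all 32851 windows of this length, 27% hold TAATT and 16.8% hold TGTGGT. Among the 8 members with a window, 2 hold TAATT and 2 hold TGTGGT. The E-box CACGTG, which MYC and MAX bind, is in none of the 8 and in 7.15% of all windows. A match of letters describes the window and shows no binding. *Has2* and *Has3* have no window in the table used.

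The hyaluronan genes were expressed at very different levels. *Vcan*, *Hyal2*, *Hapln1* and *Has2* made up most of the reads, while *Has1* and *Acan* had 20 counts or fewer in every library and *Ncan* had 30 to 43. At least 10 counts in every library were found for 8 of the 10 members, against 28.2% of all genes counted, and *Has1* and *Acan* were the exceptions. Counts and CPM rise with the length of a gene, so levels were ranked between genes after division by exonic length, as CPM per kb. On that scale *Hyal2* was highest at 39.3 ± 8.89 CPM per kb (SD, n = 3), and it was followed by *Vcan* at 15.2 ± 4.32, *Hapln1* at 5.95 ± 2.95 and *Has2* at 4.21 ± 0.982. *Hyal2* ranked 1367 and *Vcan* 3588 among the genes with a known length. The ranges over the libraries did not overlap between *Hyal2* and *Vcan* or between *Vcan* and *Hapln1*, but those of *Hapln1* and *Has2* did. *Hyal1* (0.975 ± 0.371), *Has3* (0.572 ± 0.104) and *Cd44* (0.565 ± 0.351) overlapped with their neighbours in this order and were set apart from *Has2* above and *Ncan* (0.135 ± 0.0213) below. *Has1* (0.0531 ± 0.0137) and *Acan* (0.0527 ± 0.0243) came last and overlapped with each other.

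**Figure D1:**
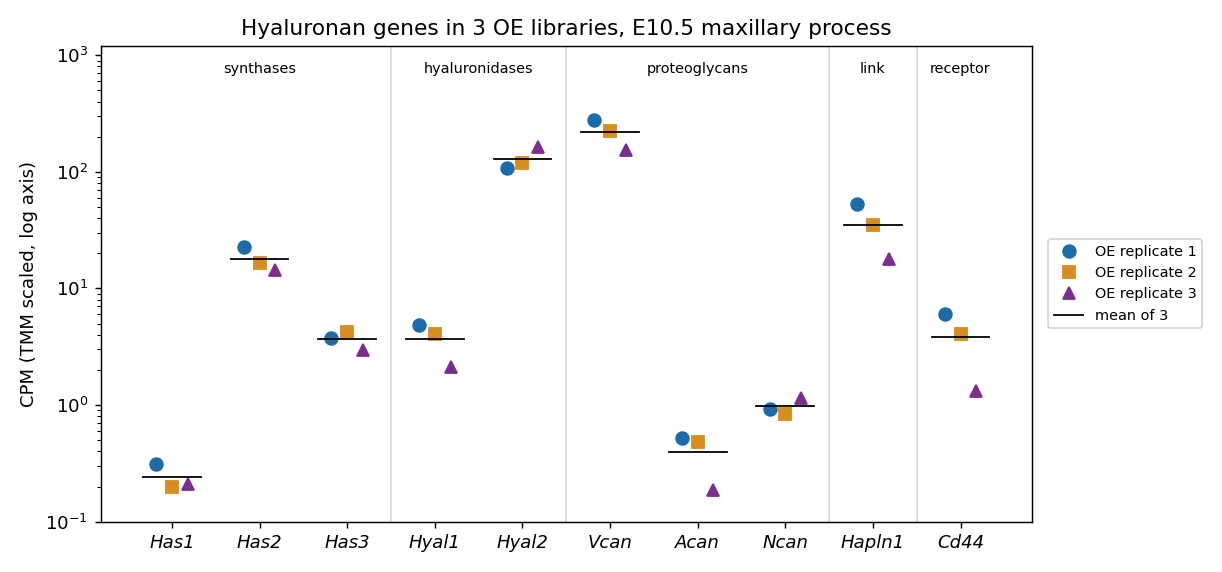
Level of each hyaluronan gene in the 3 OE libraries, in CPM with TMM scaling on a log axis. Symbols stand for the libraries and the bar is their mean; *Vcan* (154 to 279 CPM) and *Hyal2* (107.5 to 163 CPM) stand at the top, with opposite orders of the libraries, and *Has1* and *Acan* lie below 1 CPM throughout.

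Among the synthases, *Has2* was dominant. *Has2* encodes the synthase that mouse embryos cannot do without, and it lies on chromosome 15 of GRCm38 (ENSMUSG00000022367.7, 56665627 to 56694539, minus strand). It had 869, 588 and 547 counts in replicates 1, 2 and 3, or 22.5, 16.5 and 14.5 CPM. *Has3*, which makes shorter chains in cultured cells (chromosome 8, 106870242 to 106884566, plus strand), was at 3.73, 4.27 and 2.95 CPM. *Has1*, the remaining synthase (chromosome 17, 17843323 to 17855205, minus strand), was barely counted, with 12, 7 and 8 counts. Per kb of exon, *Has2* made 89.0%, 84.5% and 87.1% of the summed synthase level. In counts without length scaling, its share was 84.8% (Wilson 95% interval 82.5 to 86.8) in replicate 1, 78.7% (75.6 to 81.5) in replicate 2 and 82.1% (79.0 to 84.9) in replicate 3. These intervals cover counting error only, since amplified reads are not independent molecules. *Has2* was highest in replicate 1 and *Has3* in replicate 2, and both were lowest in replicate 3. *Has2os*, the transcript that runs antisense to *Has2*, had 18, 8 and 19 counts and shares 182 exonic bases with it, or 4.30% of the exonic length of *Has2*. The kit did not mark strand, so reads from the shared bases cannot be assigned to either gene. *Has3* shares 352 of its 6380 exonic bases with *Chtf8*.

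The hyaluronidases showed a single main member as well. *Hyal2* encodes a hyaluronidase anchored to the cell surface that cuts long chains into fragments (ENSMUSG00000010047.12, chromosome 9, 107567945 to 107572779, plus strand). It had 4150, 4209 and 6130 counts, or 107.5, 118 and 163 CPM. *Hyal1* encodes the lysosomal enzyme that takes the fragments further and lies just beyond *Hyal2* on the same strand (chromosome 9, 107576927 to 107581710). It was at 4.85, 4.07 and 2.12 CPM. The 2 neighbours thus took opposite courses over the libraries, with *Hyal2* highest and *Hyal1* lowest in replicate 3. *Hyal2* made 96.2%, 97.1% and 98.9% of their summed level per kb. Of the exonic bases of *Hyal1*, 51.9% are shared with *Hyal3* and *Naa80*. Reads that overlap several genes were left unassigned in the deposited counts, so the level of *Hyal1* is a lower limit. When shared bases were left out of the length, the share of *Hyal2* was 94.8%.

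*Vcan* encodes versican, the lectican of loose embryonic mesenchyme (ENSMUSG00000021614.16, chromosome 13, 89655312 to 89742509, minus strand). It had 10768, 8029 and 5816 counts, or 279, 226 and 154 CPM. It was the most counted member in replicates 1 and 2, whereas *Hyal2* had more counts in replicate 3. Its 9 annotated transcripts differ in the large exons that carry the chondroitin sulphate chains, and counts per gene do not separate them. *Hapln1*, whose product ties versican to hyaluronan (ENSMUSG00000021613.9, chromosome 13, 89539796 to 89611652, plus strand), had 2026, 1250 and 667 counts. This gave 52.5, 35.1 and 17.7 CPM, so both genes stood highest in replicate 1 and lowest in replicate 3. The ratio of *Vcan* to *Hapln1* per kb was 2.17, 2.62 and 3.56 in replicates 1, 2 and 3, and its mean was 2.78 ± 0.709 (SD, n = 3). *Acan*, the aggrecan gene of cartilage (chromosome 7, 79053483 to 79115099, plus strand), had 20, 17 and 7 counts. *Ncan*, the neurocan gene of nervous tissue (chromosome 8, 70093085 to 70120873, minus strand), had 36, 30 and 43 counts. *Ncan* was at 0.933 CPM in replicate 1, in which neuron markers were far higher, and at 0.843 and 1.14 CPM in the other libraries.

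Each lectican gene of the mouse lies next to a link protein gene, and the pairs were set side by side. *Hapln1* and *Vcan* lie 43.7 kb apart with their 3′ ends facing and no other protein-coding gene between them. Together they reached 21.1 CPM per kb. *Hapln3* and *Acan* on chromosome 7, with 2 bases between their annotated ends, summed to 0.637 CPM per kb, and there the link protein was the higher one (0.584 ± 0.153 against 0.0527 ± 0.0243 CPM per kb, SD, n = 3). *Hapln4* and *Ncan* summed to 0.172 CPM per kb. *Hapln2* and *Bcan* summed to 0.0407 CPM per kb, and *Hapln2* had 1 count in replicate 1 and 0 in both others. In all pairs but that of *Acan* the mean level per kb of the lectican was above that of its link protein.

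**Figure D2:**
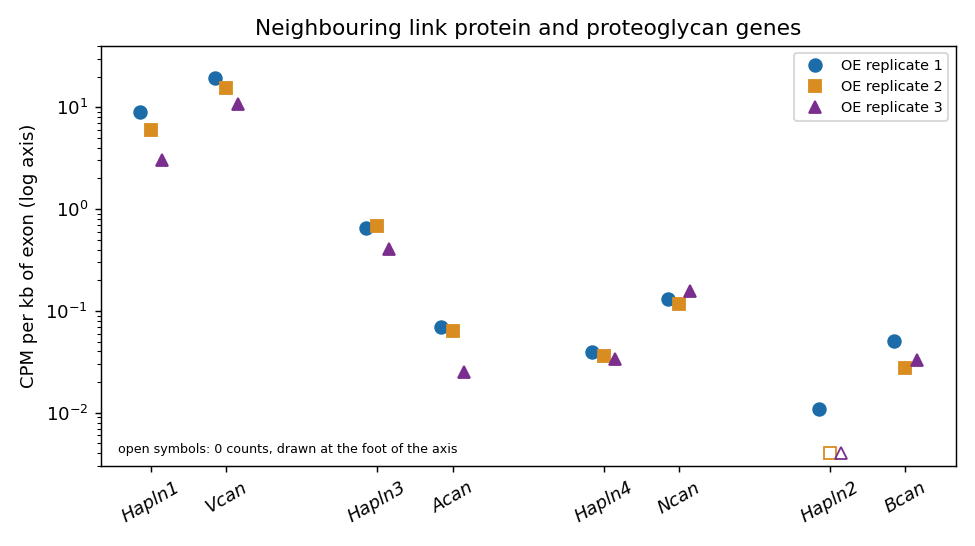
Level per kb of exon, on a log axis, of the 4 neighbouring pairs of a link protein gene and a lectican gene in each OE library. The *Hapln1* and *Vcan* pair lies above every other pair in all 3 libraries, and *Hapln3* is the only link protein gene above its lectican.

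*Cd44*, the receptor gene (ENSMUSG00000005087.17, chromosome 2, 102811141 to 102901665, minus strand), was the most variable member. It had 234, 146 and 50 counts, or 6.06, 4.10 and 1.33 CPM. The highest library was 4.57 times the lowest. The 7 epithelial markers summed to 411, 276 and 263 CPM in replicates 1, 2 and 3, with medians of 66.6, 45.8 and 30.3 CPM, and none was at 0. *Epcam*, *Cdh1*, *Trp63* and *Cldn6* were lowest in replicate 3, which is 4 of 7 against 45.6% of all genes tested. The keratin genes differed, as *Krt5* and *Krt18* were highest in replicate 3 and *Krt8* was lowest in replicate 2. The 8 macrophage markers summed to 28.2, 36.9 and 43.8 CPM, none was at 0, and they were split, with 4 highest and 3 lowest in replicate 3. The complement genes *C1qa*, *C1qb* and *C1qc* were highest there, whereas *Ptprc*, *Cx3cr1* and *Adgre1* were lowest there, as *Cd44* was. The part of either cell type in the level of *Cd44* was not tested, and in bulk tissue fewer cells of a type and less RNA per cell cannot be told apart.

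Spread between the libraries was then compared with counting noise. A chi-square test of the 3 counts was made for every gene with a mean count of at least 10, with Benjamini-Hochberg adjustment at 0.05 over all of them. *Has1*, with a mean count of 9, was not tested. Of the 9 members tested, 7 differed by more than counting noise. The share over all 17115 genes tested was 81.5%, close to that of the members. *Acan* and *Ncan* were the members within counting noise. Without replicate 3, 5 of 9 members differed, against 48.8% of all genes tested, as *Has3* and *Hyal1* no longer did. Without replicate 2, *Has3* was likewise within counting noise, at 1.27-fold, while *Acan* was beyond it, so that the count stayed at 7. The libraries are of 1 genotype, stage and tissue, so the test compares libraries and says nothing of a condition.

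By size, 4 of 9 tested members had a highest CPM of at least 2 times the lowest, against 34.8% of all genes tested. They were *Cd44* (4.57-fold), *Hapln1* (2.96-fold), *Acan* (2.79-fold, on few counts) and *Hyal1* (2.28-fold). The median range over the tested members was 1.81-fold, and over all tested genes it was 1.69-fold. *Vcan* (1.81-fold), *Has2* (1.55-fold), *Hyal2* (1.51-fold), *Has3* (1.45-fold) and *Ncan* (1.35-fold) varied by less. All 4 of the larger ranges rested on replicate 3. Without that library 0 members reached 2-fold, against 7.24% of all genes tested, with *Hapln1* at 1.49-fold and *Cd44* at 1.48-fold. Without replicate 1, 2 of 9 members did, *Cd44* (3.09-fold) and *Acan* (2.57-fold), against 18.3% of all genes tested.

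Replicate 3 was the lowest library for 7 of the 9 tested members, against 45.6% of all genes tested. Only *Hyal2* and *Ncan* were highest there. All members but *Hyal1* and *Hyal2* have more than 4000 exonic bases, the lengths at which the medians of replicate 3 were below 0. For each library, the dependence of the deviations on length and GC was therefore fitted over all genes tested and subtracted. *Vcan*, the longest member with 14462 exonic bases, then ranged over 1.05-fold in place of 1.81-fold. *Hyal2*, the shortest with 3293, ranged over 1.20-fold in place of 1.51-fold. *Has2* and *Has3* came to 1.27-fold and 1.22-fold. The ranges of these 4 genes were thus smaller after the subtraction, that of *Vcan* nearly closed, and those of *Has2* and *Has3* remained in part.

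**Figure D3:**
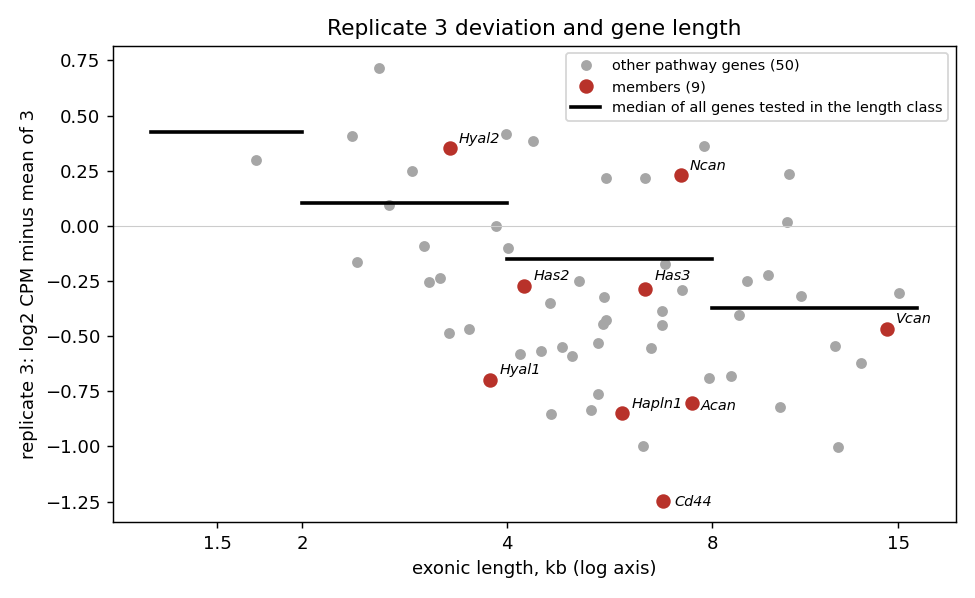
Deviation of replicate 3 from the mean of the 3 libraries (log2 CPM) against exonic length on a log axis, for the 9 tested members and the 50 tested genes of the wider list. Black lines are the medians of all tested genes in 4 length classes. *Vcan*, *Has2* and *Has3* lie a little below the line of their class, and *Cd44*, *Hapln1*, *Acan* and *Hyal1* lie further below theirs. *Hyal2* and *Ncan* lie above.

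Larger ranges were left in other members. With the trend removed, *Cd44* ranged over 2.97-fold, *Hyal1* over 2.47-fold, *Acan* over 2.28-fold and *Hapln1* over 1.86-fold. On the log2 scale, *Cd44* then lay at 0.66, 0.24 and -0.90 in replicates 1, 2 and 3 around its mean, and *Hapln1* at 0.44, 0.01 and -0.46. These 4 genes were the members still lowest in replicate 3, against 41.8% of all genes. A range of at least 2-fold was left in 3 of 9 members and in 22.9% of all genes. *Hapln1* ranged more widely than *Vcan* both as counted (2.96-fold and 1.81-fold) and with the trend removed (1.86-fold and 1.05-fold).

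**Figure D4:**
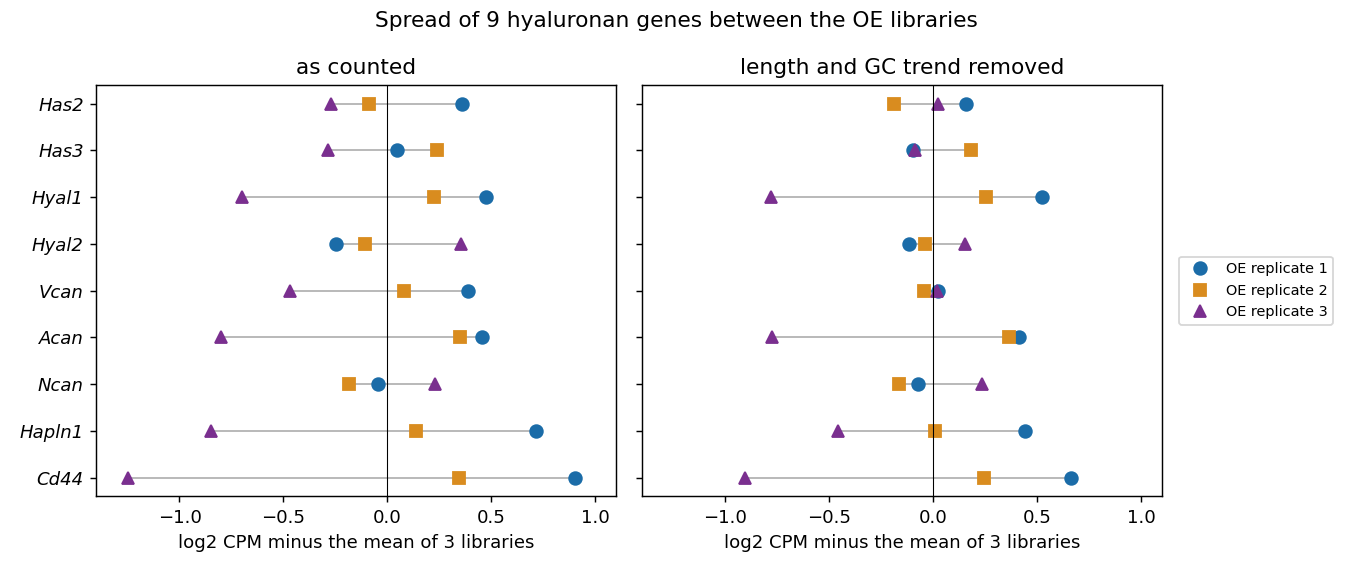
Log2 CPM of 9 hyaluronan genes in each OE library minus the mean of the libraries, as counted (left) and with the fitted dependence on length and GC subtracted (right). Grey lines join the lowest and the highest library; *Vcan* closes to 1.05-fold on the right and *Cd44* stays at 2.97-fold.

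A wider list of 67 genes gives the setting of the members. At least 10 counts in every library were found for 50 of them, against 28.2% of all genes counted. Of the 50 tested, 45 differed by more than counting noise, 12 ranged over at least 2-fold and 35 were lowest in replicate 3. These counts are to be read against 81.5%, 34.8% and 45.6% of all genes tested. Without replicate 3, 28 of 51 tested were beyond counting noise, against 48.8% of all genes tested in the same libraries. With the length and GC trend removed, 28 of the list were lowest in replicate 3, against 41.8% of all genes.

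Of the 7 enzymes that supply the sugar nucleotides, 6 were detected by the rule of 10 counts, and *Gnpnat1*, with 8, 4 and 0 counts, was not. *Ugp2*, which makes UDP-glucose, was at 14.1 ± 2.05 CPM per kb (SD, n = 3). *Ugdh*, which oxidises it to UDP-glucuronic acid, was at 8.52 ± 2.17. *Uap1*, which makes UDP-N-acetylglucosamine, was at 12.6 ± 0.777, and *Gfpt2*, of the first step of the hexosamine pathway, at 8.81 ± 2.07. In CPM, *Uap1* was among the steadiest at 51.7, 53.1 and 47.2 in replicates 1, 2 and 3. *Ugdh* was at 72.3, 57.2 and 43.0 CPM, the same order of libraries as *Has2*.

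Of the turnover genes outside the HYAL family, *Cemip2*, which encodes a cell surface protein of hyaluronan breakdown, had a higher level than *Cemip*. It was at 111, 83.5 and 47.4 CPM, or 9.45 ± 3.73 CPM per kb. *Hyal4*, *Hyal5*, *Hyal6* and *Spam1*, which lie together on chromosome 6 and include the sperm enzymes, had 0 counts in all libraries. Among other receptors, *Hmmr*, which is also a mitotic spindle gene, was at 77.6, 64.6 and 32.1 CPM, and *Stab1*, a scavenger receptor of endothelium and macrophages, at 57.3, 70.9 and 64.9. *Stab1* was thus lowest in replicate 1, unlike *Cd44*.

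The cross-linkers of hyaluronan were split. *Tnfaip6*, whose product moves heavy chains of inter-alpha-inhibitor onto hyaluronan, was at 15.8, 19.6 and 24.0 CPM, and *Ptx3*, which joins that complex, was at 16.3, 16.0 and 17.8. *Ptx3* did not differ beyond counting noise. *Itih5* was at 17.4, 18.1 and 8.60 CPM. The heavy chain gene *Itih1* had 0 counts throughout.

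Proteases that cut versican were all detected. *Adamts1* had the highest level per kb in each library and was at 40.4, 30.7 and 14.7 CPM, a 2.75-fold range that followed the order of *Vcan* and *Hapln1*. It kept a 2.36-fold range with the trend removed. *Adamts4* was at 19.4, 18.9 and 10.8 CPM, *Adamts9* at 28.7, 29.8 and 21.3, and *Adamts15* at 10.9, 10.7 and 13.8.

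Among genes of matrix proteins that bind lecticans, *Fbln1* had the highest mean level per kb of the list, which rested on replicate 3. Per kb it was at 43.8, 57.4 and 74.7 CPM and *Rdx* at 68.0, 61.8 and 26.7. *Fbln1*, whose product binds versican and aggrecan, was at 191, 251 and 326 CPM, or 58.6 ± 15.5 CPM per kb. *Fbln2* was at 87.7, 120 and 128 CPM. Both were lowest in replicate 1, against the order of *Vcan*. The fibrillin genes went the other way in replicate 3, where *Fbn2* was at 134 CPM against 254 and 256 in replicates 1 and 2, and *Fbn1* at 29.3 against 52.6 and 50.7. With the trend removed *Fbln1* ranged over 1.51-fold and *Fbn2* over 1.64-fold.

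Of the 18 enzymes that build and sulphate chondroitin chains, 17 had at least 10 counts in every library. *B3gat3*, which completes the linker to the core protein, had the highest mean at 25.9 ± 12.2 CPM per kb, which also rested on replicate 3, since *Chpf* was above it in replicates 1 and 2. *Chpf* and *Chsy1*, which extend the chain, were at 22.5 ± 0.808 and 17.2 ± 5.42, and *Xylt2*, which starts the linker, at 13.2 ± 3.55. *Chpf* was steady between libraries as counted, with a 1.07-fold range, but ranged over 1.34-fold with the length and GC trend removed. *B3gat3* was at 44.4, 53.8 and 103 CPM, higher in replicate 3 like *Hyal2*, and *Chsy1* was at 89.1, 80.6 and 46.3. With the trend removed, *B3gat3* ranged over 1.49-fold in place of 2.32-fold, and *Chsy1* over 2.08-fold in place of 1.92-fold.

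The mRNAs of proteins that tie CD44 to the actin cortex had higher levels per kb than that of *Cd44*. *Rdx*, *Msn*, *Nf2* and *Ezr* were at 52.2 ± 22.3, 23.1 ± 11.0, 19.2 ± 1.94 and 15.7 ± 4.66 CPM per kb. All 4 were lowest in replicate 3, as *Cd44* was and as were 45.6% of all genes tested. *Msn* (191, 182 and 66.0 CPM) ranged over 2.89-fold, *Rdx* (316, 287 and 124 CPM) over 2.55-fold, *Ezr* (66.3, 53.0 and 35.7 CPM) over 1.85-fold and *Nf2* (140, 136 and 116 CPM) over 1.21-fold.

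**Figure D5:**
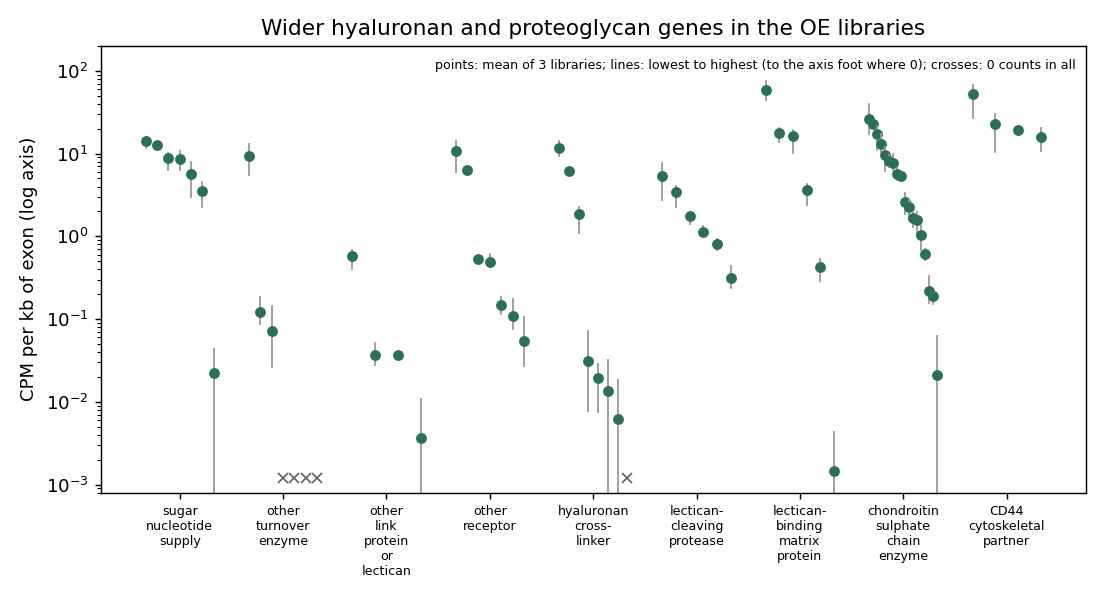
Level per kb of exon (log axis) of the 67 genes of the wider list in 9 groups by role. Points are means of the 3 OE libraries and lines run from the lowest to the highest library; *Fbln1* at 58.6 and *Rdx* at 52.2 CPM per kb have the highest means, and crosses mark the 5 genes with 0 counts in all libraries.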

How the data were processed

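Bulk RNA-Seq had been made from E10.5 maxillary prominences from bead-purified mRNA with a kit that does not mark strand. The authors aligned 150 bp paired-end reads to mm10 with STAR 2.7.3a and deposited raw counts per gene, 1 table for each of 3 OE libraries, without normalization. HTSeq 0.12.4 is named in the submitters' processing notes. The strand setting and annotation release are not given in the sources used here. Rows naming no gene held 14.2%, 15.7% and 16.4% of counted reads and were left out.

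Of 55401 identifiers, 55141 were matched to GENCODE M21 (GRCm38) without regard to version, for names, positions, exonic length (all exons joined) and bases shared with other genes on either strand. GC content is that of the longest transcript. CPM used edgeR 4.0.16 with TMM scaling in R 4.3.3. Log2 values had a prior count of 2. Trends were fitted with mgcv 1.9-3. DESeq2 1.42.0 gave other size factors. With 1 group, no quasi-likelihood test was possible, so a chi-square test across all genes was used. It was tried on simulated counts whose only noise was counting noise. The libraries differ by more than that, so the trial does not show how the test behaves on them. The labels do not say whether libraries came from separate embryos. The sex marker *Xist* was at 671 CPM in replicate 1. It was at 0.309 and 0.557 CPM in replicates 2 and 3, where the Y-linked genes were counted instead. Replicate 1 thus came from embryos of another sex than replicates 2 and 3. Whether replicates 2 and 3 came from separate embryos is not known, and the spread may be partly technical. All 10 members are named, and of the wider list up to 4 genes per role with at least 10 CPM, highest per kb first, plus those without counts. Other genes are named as cell markers, as pairs of link protein and lectican genes, for bases shared with a member or, in the closing section, after their values were seen. *Gnpnat1* was named for its low counts. The members and lists were chosen with earlier results of these data known.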

Additional observations from a re-analysis of the deposited data

How the results depend on the processing

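Leaving out 1 replicate at a time gave 0 to 4 members and 4 to 11 genes of the wider list with a range of at least 2-fold, 5 to 8 members and 28 to 43 genes of the wider list beyond counting noise, and 8 to 9 members detected. Over all genes tested the same shares ran from 7.24% to 31.2% and from 48.8% to 77.7%. The lowest noise and 2-fold counts came without replicate 3. The *Vcan* to *Hapln1* ratio was 2.40 without replicate 3 and 3.09 without replicate 1. Without replicate 1 the 2-fold counts were 2 members and 6 genes of the wider list, against 18.3% of all genes tested. The wider list had 12 of 50 genes with a 2-fold range (34.8% of all genes tested), 21 of 50 with library totals in place of TMM scaling (36.7%), 22 of 62 without a filter on low counts (57.4%) and 6 of 50 with the trend on length and GC content removed (22.9%). The number of members lowest in replicate 3 went from 7 to 4 with that trend removed, which was added with the data in view, and was 7 under both other scalings. Without length scaling the *Has2* share was 81.9% in place of 86.9% and the *Vcan* to *Hapln1* ratio 6.82 in place of 2.78, because the genes differ in length. Without shared bases in the length, likewise added later, the *Hyal2* share was 94.8% in place of 97.4%. In all, 21 results were recomputed 126 times. Of these values, 114 moved by less than 1 SD (or less than 1.5 times, for a count) and 12 moved by more. Reversals were not scored. Leaving out 1 of 3 libraries cannot move a mean by 1 SD, so for levels and ratios those values say nothing of stability. No paired analysis was possible because there is only 1 group. Depth limits *Has1*, *Acan* and *Ncan*, whose counts are few. *Acan* passed the noise test without replicate 1 or 2 and with library totals.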

Other observations

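The collagen genes of cartilage had higher levels per kb of exon than *Acan*. Over the 3 libraries *Col2a1* ranged over 96.9 to 123 CPM per kb, *Col9a1* over 19.8 to 24.6, *Col9a2* over 3.9 to 8.21 and *Col11a1* over 2.42 to 4.07, while *Acan* ranged over 0.0249 to 0.0694 CPM per kb. The cartilage matrix gene *Matn1* had 1, 2 and 1 counts.

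Among genes of the wider list, *Gnpnat1*, which acts in the making of UDP-N-acetylglucosamine, had 8, 4 and 0 counts, and 83.5% of its exonic bases are shared with other genes, so its level is a lower limit. *Cemip*, a secreted protein of hyaluronan breakdown, was at 1.76, 0.562 and 0.319 CPM, a 5.53-fold range that exceeded counting noise. *Lyve1*, a hyaluronan receptor of lymphatic endothelium and macrophages, had 12, 3 and 3 counts. These 3 genes were chosen after their values were seen.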
